A study of Mus musculus with 97 samples.

Results

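The comparison set captured regions of hippocampus against captured regions of cortex in mice treated with doxorubicin plus cyclophosphamide (DC). Libraries were chosen by their titles: all 8 from DC-treated APOE3 hippocampus and all 8 from DC-treated APOE3 cortex, 16 of the 97 in the series. The mice were older knock-ins that carry human APOE3, and DC was doxorubicin at 3 mg/kg per week with cyclophosphamide at 40 mg/kg per week, injected into the peritoneum 2 times per week for 2 weeks. Vehicle and DD groups were used beside them, all APOE3 and all from the same plate: vehicle (dimethyl sulfoxide in phosphate-buffered saline; 8 hippocampus and 8 cortex libraries) and DD (doxorubicin with docetaxel at 10 mg/kg per week; 8 and 9 libraries). DC-treated APOE4 libraries were left out because the negative probe, which matches no target and measures background, had a median of 10.9 in their hippocampus, against 1.26 in DC-treated APOE3 hippocampus. Expression was read with the GeoMx Whole Transcriptome Atlas, in which probes bound to a tissue section carry tags that are released by ultraviolet light from a chosen region and sequenced. The labels do not tie regions to animals, so some of the 8 regions in a group may share an animal, and p-values over regions are then too small.

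The hippocampus and the cortex share their broad classes of cells, excitatory and inhibitory neurons, astrocytes, oligodendrocytes and microglia, but differ in their neurons: the hippocampus is built of granule cells of the dentate gyrus and pyramidal cells of the CA fields, and the cortex of layered projection neurons. Doxorubicin intercalates into DNA and poisons topoisomerase II, and cyclophosphamide is activated in the liver to a DNA alkylating agent. A difference between regions in treated tissue can therefore be one that is present without treatment or one that treatment changed, and the second was tested as a difference of differences.

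Libraries were shallow. Total counts ran from 21568 to 46285 in hippocampus and from 22567 to 73954 in cortex, but these hold at least 1 for each of 19962 genes, the lowest value in these libraries; summed over that floor, counts ran from 1606 to 26323 and from 2605 to 53992. The negative probe had a median of 1.26 in hippocampus (range 1.02 to 1.86) and 1.41 in cortex (1.06 to 2.96), a difference that did not pass (log2 -0.28, two-sided exact permutation p = 0.191 over 8 against 8 libraries). In hippocampus, 70 genes had a median of more than 2 times this background, and in cortex 150 genes did. The median over all genes was 0.861 and 0.942 times background. Only 23 genes passed the low-count filter, which asks for 10 counts at the median total in 8 of the 16 libraries. Each of 4 plate rows (A, D, E and H) held 2 libraries of each region, so every difference could also be read within a row.

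Defining markers gave no check of the region labels. Of 20 hippocampal markers (among them Prox1, of dentate granule cells) and 20 cortical markers, 0 passed the filter and 0 exceeded background by more than 2-fold in either region. Prox1 lay at 0.803 times the negative probe in hippocampus and 0.942 times in cortex.

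Relative to the other tested genes, 9 genes were higher and 9 lower in hippocampus than in cortex after DC, of 23 tested (78.3% called; edgeR quasi-likelihood test, Benjamini-Hochberg adjusted p under 0.05; 39.1% in each direction). Relative to the negative probe 0 genes were higher and 13 lower, so the direction of the first set holds against the other tested genes. The genes higher in hippocampus were Mtch2, a carrier-like insertase of the outer mitochondrial membrane, Erlin2, an endoplasmic reticulum protein that marks receptors for degradation, Xrn1, the cytoplasmic 5′ to 3′ exoribonuclease, Hmga2, an architectural chromatin protein, Ripply2, a transcriptional corepressor, Vmn1r189, a vomeronasal receptor, and the predicted genes Gm33888, Gm34733 and Gm46840. The genes lower in hippocampus were Chic2, a palmitoylated membrane protein, Lrr1, substrate receptor of a cullin ubiquitin ligase, Tysnd1, a peroxisomal protease, Trir, an RNA exonuclease, Rrp36, a ribosomal RNA processing factor, Cd99, a surface glycoprotein, and the predicted genes Gm10265, Gm52523 and Gm40755. The higher genes differed by log2 1.22 to 1.67 and the lower genes by -0.43 to -1.27. Only 4 of the 23 genes (17.4%) had regions whose libraries did not overlap on the log2 scale: Erlin2, Gm34733 and Vmn1r189, all higher, and Gm52523, lower. Of the 9 lower genes, 5 (Chic2, Cd99, Trir, Rrp36 and Gm40755) fell short of the filter's minimum in some hippocampus libraries and in 0 cortex libraries. Rrp36 and Gm40755 reached it in 0 of 8 hippocampus libraries, and so were tested only because they were high in cortex: they had to differ, and their calls are given as descriptions. Trir reached it in 3, Cd99 in 5 and Chic2 in 7 of 8 hippocampus libraries, so their passing also leaned on cortex. The calls of Trir and Cd99 are likewise given as descriptions, and that of Chic2 carries the same limit in part. Of the 9 higher genes, 4 fell short in some hippocampus libraries and 5 in some cortex libraries. Gm34733 reached the minimum in 6 hippocampus and 4 cortex libraries, Erlin2 and Ripply2 in 7 and 6, and Xrn1 in 8 and 7. The passing of these genes leaned in part on hippocampus, and their calls carry that limit. Vmn1r189 reached it in 4 libraries of each region.

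The promoters of 4 of these genes are shown because Mtch2 held 43.3% of the tested counts in hippocampus and Chic2 fell most, and because Gm33888 and Gm34733, higher together, start 97.6 kb apart on chromosome 16. Each window runs from 250 bases before to 50 after the start in RefSeq (GRCm38.p6); capitals mark matches on either strand to a GC box, searched as GGGCGG, to the motif CCAAT, to a TATA box, searched as TATAAA, or to an E-box, searched as CACGTG. Matches that overlap are marked as 1 stretch.
Mtch2, chr2:90846905-90847204, plus strand: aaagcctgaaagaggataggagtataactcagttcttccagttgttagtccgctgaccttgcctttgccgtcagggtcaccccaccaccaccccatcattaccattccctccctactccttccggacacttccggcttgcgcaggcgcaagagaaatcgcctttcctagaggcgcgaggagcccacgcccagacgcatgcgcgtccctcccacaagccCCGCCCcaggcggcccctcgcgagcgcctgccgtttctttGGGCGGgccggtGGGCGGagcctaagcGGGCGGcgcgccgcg
Chic2, chr5:75044592-75044891, minus strand: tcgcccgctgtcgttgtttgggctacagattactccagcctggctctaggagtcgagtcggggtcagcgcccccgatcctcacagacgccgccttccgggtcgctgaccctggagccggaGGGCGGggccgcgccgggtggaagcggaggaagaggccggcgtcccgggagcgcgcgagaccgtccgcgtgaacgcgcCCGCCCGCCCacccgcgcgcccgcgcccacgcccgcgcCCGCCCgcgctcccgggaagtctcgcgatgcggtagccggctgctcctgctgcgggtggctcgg
Gm33888, chr16:89129007-89129306, plus strand: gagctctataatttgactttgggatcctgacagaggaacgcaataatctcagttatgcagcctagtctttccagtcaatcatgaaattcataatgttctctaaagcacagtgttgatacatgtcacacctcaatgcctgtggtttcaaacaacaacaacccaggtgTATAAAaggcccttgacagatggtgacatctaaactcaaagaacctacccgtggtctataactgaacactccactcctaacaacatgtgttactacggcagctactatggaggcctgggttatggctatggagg
Gm34733, chr16:89226561-89226860, plus strand: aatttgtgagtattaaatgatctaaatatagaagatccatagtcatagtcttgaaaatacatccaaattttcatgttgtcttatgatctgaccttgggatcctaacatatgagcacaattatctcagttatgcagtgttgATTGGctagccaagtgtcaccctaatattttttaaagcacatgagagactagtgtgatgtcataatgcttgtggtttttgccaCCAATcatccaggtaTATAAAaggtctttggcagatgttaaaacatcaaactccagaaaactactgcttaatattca
Mtch2 and Chic2, which moved in opposite directions, each held 4 GC boxes, a motif present in 35.7% of 32851 promoter windows of this length. Gm33888 and Gm34733 held 0 GC boxes and 1 TATAAA each, a motif in 13.6% of windows, with 3 and 0 CpG dinucleotides against a median of 7 over all windows; Gm34733 also held 2 CCAAT matches (37.4% of windows). The stretch between them holds 9 annotated genes, 1 of them a keratin-associated protein gene. A window was found for 8 of the 9 higher genes and 7 of the 9 lower genes; For Rrp36 and Tysnd1, which have 2 windows each, the one with the lower start was used; 4 and 6 of the genes held a GC box, 2 and 0 held TATAAA, 2 and 2 held CCAAT, 0 and 1 held CACGTG, and the median number of CpG was 16 and 19. The other window of Rrp36 held 2 TATAAA matches. These matches are descriptions of letters in a window, and no binding was measured.

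Of the mitochondrial and metabolic genes, Mtch2 was higher and Tysnd1 lower in hippocampus. Mtch2 (chromosome 2, 90847090 to 90866810, GRCm38.p6) had deposited counts that ran from 214 through a median of 389.5 to 863 in hippocampus and from 195 through 267.5 to 905 in cortex. The raw counts thus overlapped, and the 2 highest cortex libraries were both in plate row E, the deepest. As a share of the tested counts Mtch2 held 43.3% ± 9.29 (SD, n = 8) in hippocampus and 21.6% ± 9.80 (SD, n = 8) in cortex. The fitted difference was 2.95-fold (log2 1.56, SE 0.35, edgeR adjusted p = 0.000700), and 8 of 8 hippocampus libraries exceeded the cortex mean. Tysnd1 fell short of the cortex by 1.35-fold, in 7 of 8 libraries (log2 -0.43, SE 0.14, adjusted p = 0.0106). Its counts of 14 to 49 (median 21) in hippocampus reached into the cortex range of 21 to 251 (median 87.5). Coa5, needed to assemble cytochrome c oxidase, Fdx2, a ferredoxin of iron-sulfur cluster synthesis, and Pcbd2, a pterin dehydratase, did not pass (log2 -0.28, -0.43 and -0.19; adjusted p = 0.295, 0.154 and 0.415).

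**Figure D1:**
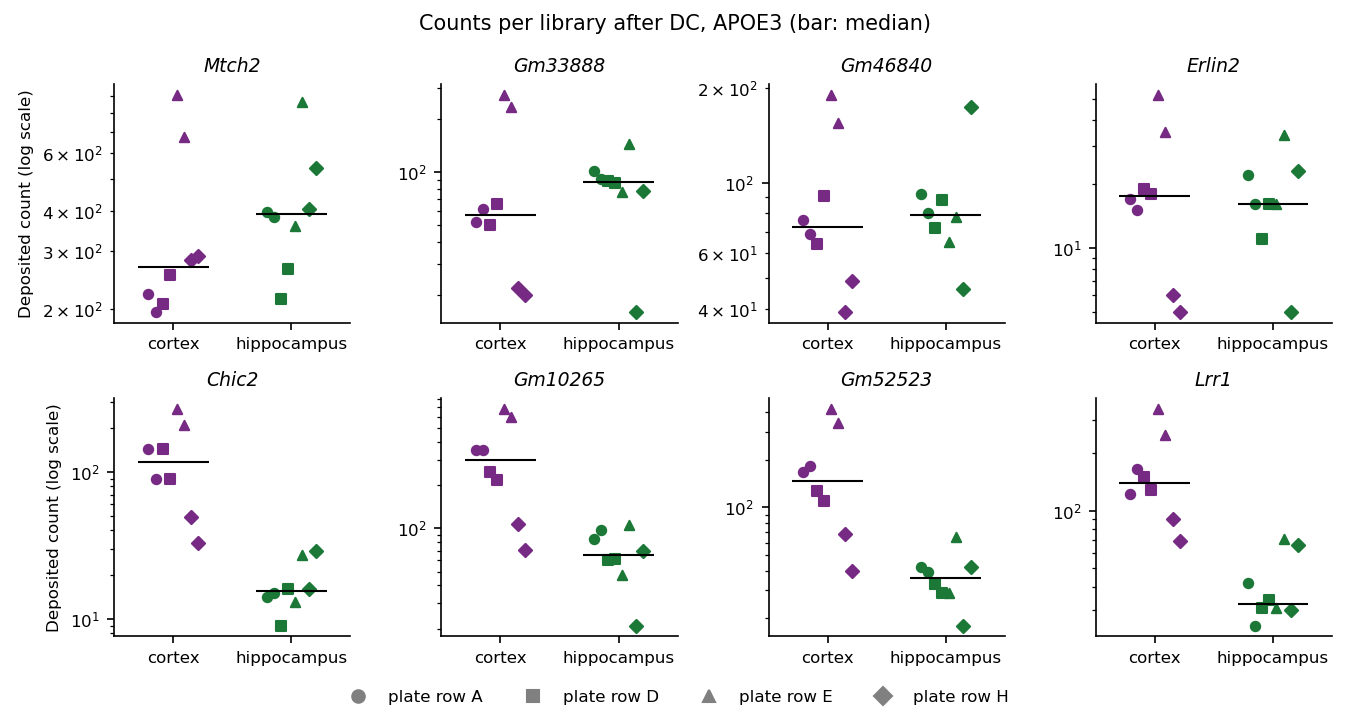
Deposited counts of 8 genes in each of the 16 libraries (log axis, a point per library, symbol by plate row, bar at the median). Mtch2, Gm33888, Gm46840 and Erlin2 overlapped widely between the regions, with hippocampus medians of 389.5, 88, 79 and 16, whereas Chic2 ran from 9 to 29 in hippocampus and from 33 to 268 in cortex.

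Of the genes of RNA, chromatin and transcription, Xrn1, Hmga2 and Ripply2 were higher and Trir and Rrp36 lower in hippocampus. Xrn1 had counts of 10 to 53 (median 15) in hippocampus and 10 to 41 (median 15.5) in cortex, where cortex libraries held more counts of the tested genes. After scaling it was 2.98-fold higher (log2 1.58, SE 0.32, edgeR adjusted p = 0.000231). Ripply2, with medians of 15.5 and 15, was 2.83-fold higher (log2 1.5, SE 0.30, adjusted p = 0.000231). Hmga2 had the widest error of the called genes and was 2.32-fold higher (log2 1.22, SE 0.41, adjusted p = 0.0110), from counts of 13 to 87 (median 22) against 15 to 92 (median 28.5). For each of these 3 genes, 8 of 8 hippocampus values exceeded the mean of the cortex values. Trir had 4 to 22 counts (median 8) in hippocampus and 13 to 122 (median 40.5) in cortex, and was 1.66-fold lower (log2 -0.73, SE 0.19, adjusted p = 0.00181). It reached the filter's minimum in 3 of 8 hippocampus libraries, so this is a description. Rrp36 had 3 to 10 counts (median 7) in hippocampus and 10 to 73 (median 29.5) in cortex, ranges that met at 10, and was 1.72-fold lower (log2 -0.78, SE 0.19, adjusted p = 0.00116).

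Membrane and secretory genes moved both ways. Erlin2 (chromosome 8, 27023371 to 27039437) had the smallest p of the comparison, 2.61-fold higher in hippocampus (log2 1.38, SE 0.16, edgeR adjusted p = 2.25e-06), from counts of 5 to 34 (median 16) against 5 to 52 (median 17.5). Vmn1r189 was 2.43-fold higher (log2 1.28, SE 0.23, adjusted p = 7.09e-05), from 5 to 17 counts (median 11) against 2 to 36 (median 12.5). Chic2 (chromosome 5, 75005004 to 75044641) had the largest fall of all 23 genes, 2.41-fold (log2 -1.27, SE 0.20, adjusted p = 2.30e-05). It ran from 9 to 29 counts (median 15.5) in hippocampus and from 33 to 268 (median 116.5) in cortex. These raw counts, not scaled for depth, did not overlap. After scaling the ranges just met, with a highest hippocampus log2 CPM of 15.35 and a lowest cortex log2 CPM of 15.34. Its share of tested counts was 1.79% ± 0.403 (SD, n = 8) in hippocampus and 6.75% ± 1.94 (SD, n = 8) in cortex. Cd99 was 1.41-fold lower (log2 -0.50, SE 0.22, adjusted p = 0.0495), a call that ended in 9 of the 16 fits that left out 1 library, at log2 -0.36 without hippocampus 2. Gimap4, a GTPase of lymphocytes, did not pass (log2 0.57, SE 0.36, adjusted p = 0.149), but did with plate row as a block (log2 0.63, adjusted p = 0.00526) and without row H (log2 0.80, adjusted p = 0.00180). Relative to the negative probe it was at log2 -0.61.

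Lrr1, of the ubiquitin genes, had 25 to 71 counts (median 32.5) in hippocampus and 69 to 342 (median 139.5) in cortex, and was 1.44-fold lower (log2 -0.52, SE 0.20, edgeR adjusted p = 0.0218). Its call ended without cortex 7 (log2 -0.36, adjusted p = 0.110), as did that of Tysnd1 (log2 -0.35, adjusted p = 0.0669). Of the neuronal genes, cortexin (Ctxn1) was tested and did not pass (log2 -0.42, SE 0.25, adjusted p = 0.133), with 1 to 19 counts (median 8) in hippocampus and 4 to 83 (median 36) in cortex.

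The 6 predicted genes divided evenly. Gm33888 had 16 to 145 counts (median 88) in hippocampus and 20 to 274 (median 57) in cortex, a 3.01-fold difference (log2 1.59, SE 0.22, edgeR adjusted p = 5.90e-06). Gm34733, which starts 97.6 kb from it on chromosome 16, had medians of 13.5 and 10.5 and the largest fold of the comparison, 3.19 (log2 1.67, SE 0.22, adjusted p = 5.90e-06). Gm46840, annotated as a long noncoding RNA on chromosome 4 (3231182 to 3258873), was 2.71-fold higher (log2 1.44, SE 0.23, adjusted p = 2.30e-05), with medians of 79 and 72.5. Gm10265 had 21 to 105 counts (median 65.5) in hippocampus and 71 to 681 (median 298) in cortex, and was 1.56-fold lower (log2 -0.64, SE 0.15, adjusted p = 0.000700). Gm52523 and Gm40755 were 1.55- and 1.66-fold lower (log2 -0.63 and -0.73, adjusted p = 2.30e-05 and 0.00136), and Gm40755 had 5 to 8 counts in hippocampus and 11 to 76 in cortex. Gm52523 had the smallest error of all tested genes (SE 0.10), with log2 differences of -0.54 to -0.67 within the 4 plate rows.

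**Figure D2:**
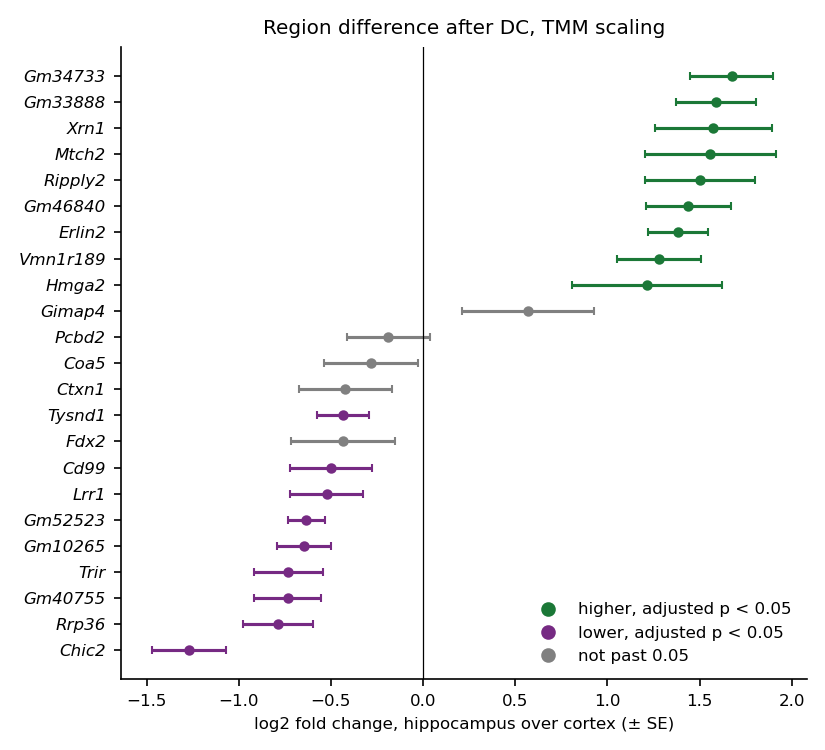
Log2 fold change of each of the 23 tested genes, hippocampus over cortex, after TMM scaling (point, with SE as bar; colour by edgeR call). The 9 higher genes form a block from 1.22 to 1.67, apart from the rest, while the 9 lower genes, Chic2 aside, run without a break into the genes that did not pass.

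Signs were mostly the same inside every plate row. The genes were called in these same libraries, so this is a description. All 9 higher genes were higher in 4 of 4 rows, and 8 of the 9 lower genes were lower in 4 of 4; Cd99 had a difference of 0.030 in row H and -0.43 to -1.07 in the others. Of the 5 genes that did not pass, 1 was higher and 3 were lower in 4 of 4 rows. Chic2 differed by log2 -1.44, -1.91, -1.14 and -0.52 in rows A, D, E and H, and Mtch2 by 1.08 in row H to 2.35 in row A. With plate row as a block, the 18 calls were kept and Gimap4 was added.

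Ratios of raw mean counts, not scaled for depth, set the higher genes apart from the others. They did not set the lower genes apart from those that did not pass. The classes were called in these same libraries, so a gap between them is built in and the ratios are a description. For the 9 higher genes, the mean count in hippocampus was 0.765 to 1.13 times that in cortex; for the 9 lower genes it was 0.136 to 0.250 times, and for the 5 genes that did not pass 0.230 to 0.452 times. The 9 higher genes together held 456 to 1272 counts per library in hippocampus (median 611) and 394 to 1657 in cortex (median 426), whereas the 9 lower genes held 125 to 373 (median 214) and 284 to 2369 (median 954.5). The higher set was larger than the lower set in 8 of 8 hippocampus libraries; in cortex only library 8, in plate row H, had more counts of the higher set, 426 against 284. The higher set made up 72.7% of the tested counts in hippocampus and 37.7% in cortex.

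**Figure D3:**
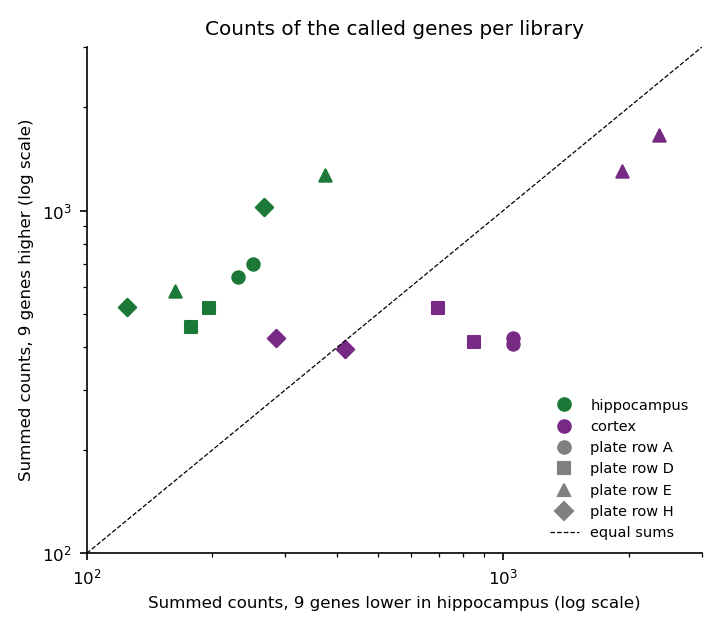
Summed counts of the 9 genes lower in hippocampus (x) against the 9 genes higher (y), a point per library on log axes, with the line of equal sums dashed. The genes were chosen for this difference, so the picture is a description: hippocampus libraries spread from 125 to 373 on the x axis and cortex libraries from 284 to 2369, while the y axis ranges overlap (456 to 1272 and 394 to 1657).

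Which genes count as higher therefore depends on what libraries are scaled to. TMM scaling centres the tested genes on each other and gave 9 higher and 9 lower; scaled to all counts over the floor, 2 genes were higher (Gm33888 and Gm34733) and 10 lower, and scaled to the negative probe 0 were higher and 13 lower. The median log2 difference of the 23 genes moved from -0.28 to -0.90 and -1.47. Relative to the negative probe, Mtch2 was at log2 0.60 (adjusted p = 0.0776) and Erlin2 at 0.22 (adjusted p = 0.551), while Chic2 was at -2.46. Chic2, Gm10265, Gm52523, Lrr1, Trir, Rrp36, Gm40755, Tysnd1 and Cd99 were lower and past the threshold under all 3 scalings. Because the median moved down under the other scalings, this was largely set in advance and is a description. A ratio of probes within a library needs no scaling: the log2 ratio of Mtch2 to Chic2 counts was 4.60 ± 0.317 (SD, n = 8) in hippocampus and 1.61 ± 0.892 (SD, n = 8) in cortex, with no overlap (4.04 to 5.0 against 0.53 to 3.14). Both genes were taken for their opposite differences in these libraries, so this gap of 2.99 is a description, with no test. Summed counts of the tested genes were 978 ± 366 (SD, n = 8) in hippocampus and 1921 ± 1305 (SD, n = 8) in cortex (log2 -0.79, exact permutation p = 0.0452, adjusted over 4 quantities 0.0904). With labels exchanged within plate rows only, the exact permutation p was 0.0139 (adjusted 0.0278), with differences of -0.75, -0.92 and -1.75 in rows A, D and E and 0.25 in row H. These adjusted values are too small, because the Mtch2 to Chic2 ratio, chosen for its difference, is among the 4 quantities. The sum covers only genes that passed the filter, and Rrp36 and Gm40755 passed through cortex alone. A lower sum in hippocampus is thus partly built in. Counts over the floor, which cover all genes, did not differ beyond their spread (log2 -0.70, exact permutation p = 0.331, and 0.289 within plate rows). In a captured region, fewer cells and less RNA per cell cannot be told apart.

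**Figure D4:**
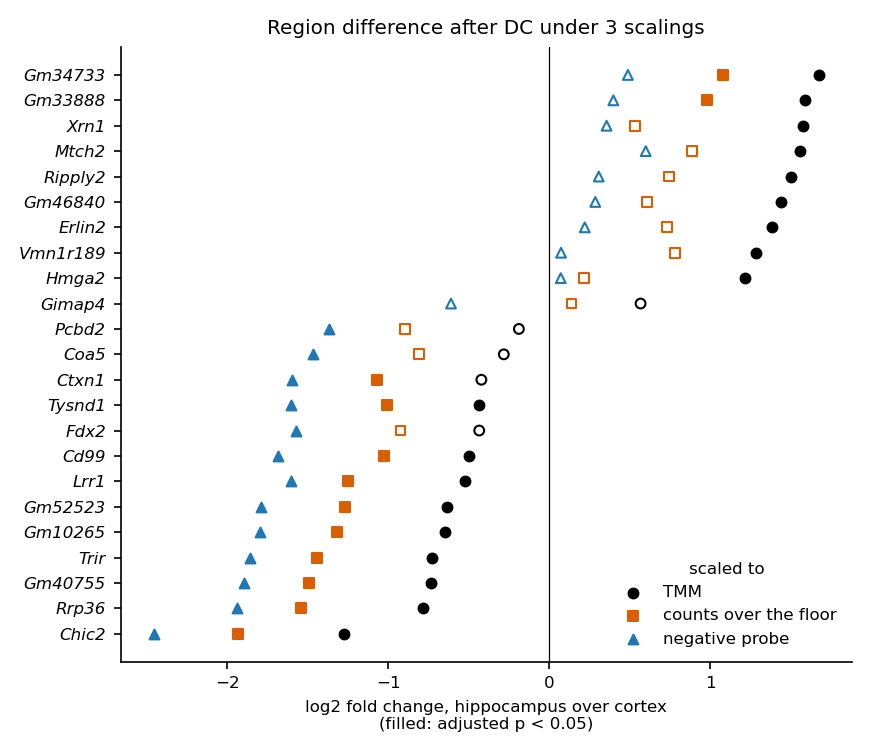
Log2 fold change of the 23 genes, hippocampus over cortex, scaled by TMM (circles), to counts over the floor (squares) and to the negative probe (triangles); filled symbols passed an adjusted p of 0.05. The order of genes is nearly kept while the zero line moves: 9 genes lie filled to its right under TMM, 2 under the floor scaling and 0 under the negative probe.

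Whether treatment changed the region difference was asked in a fit to all 49 APOE3 libraries, in which 34 genes passed the filter. All 18 genes called after DC were also called, in the same direction, in vehicle and in DD libraries, where 73.5% of the 34 genes were called in each (35.3% higher and 38.2% lower in each). In DC libraries 64.7% were called in this fit (32.4% in each direction). No library is shared between these 3 comparisons, but they share a filter, a scaling and a fit. The 18 genes include Rrp36, Gm40755, Trir and Cd99, whose calls are descriptions, so the agreement is a description too. Mtch2 differed by log2 1.64 (SE 0.27) after DC, 1.55 (SE 0.26) in vehicle and 1.64 (SE 0.26) after DD. Its mean count was 428 in hippocampus and 378 in cortex after DC, against 1726 and 831 in vehicle and 957 and 826 after DD. These means are not scaled for depth. As a share of the counts of the 34 genes, Mtch2 held 41.1% in hippocampus and 20.2% in cortex after DC. The shares were 59.2% and 36.2% in vehicle and 48.1% and 24.2% after DD. Chic2 differed by -1.26 (SE 0.19), -0.82 (SE 0.17) and -1.10 (SE 0.17). Another 5 genes that were too low for the 16-library filter were called after DC in this fit: Tmed2, a receptor for cargo in transport vesicles, and Rhov, a small GTPase, higher (log2 1.80 and 1.72), and Calm2, a calmodulin gene, Tubg1, gamma-tubulin, and 1110065P20Rik lower (log2 -0.88, -0.73 and -0.54). Their mean counts per DC library were 10.1, 9.13, 2.5, 2.63 and 5.5 in hippocampus and 8.88, 8.75, 14.25, 13.4 and 26 in cortex. Which region carried each of these 5 genes past the filter was not counted. A gene that passes through 1 region has to differ, so these calls are given as descriptions.

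The difference of differences passed for 0 of 34 genes (0% called) between DC and vehicle, with 3 genes under an unadjusted p of 0.05 and 0 calls by DESeq2, and for 0 of 34 between DC and DD, with 1 gene under 0.05 and 0 by DESeq2. The 3 genes were Txlnb, a taxilin, Gimap4 and Fam177a. Txlnb was higher in vehicle hippocampus (log2 1.44, SE 0.27, edgeR adjusted p = 4.68e-06) and did not pass after DC (log2 0.39, SE 0.37, adjusted p = 0.337); the change of -1.04 (SE 0.45) had an adjusted p of 0.490. Its mean count, not scaled for depth, was 16 in vehicle hippocampus and 3.5 in DC hippocampus, against 8.38 and 8.00 in cortex. As a share of the counts of the 34 genes, Txlnb held 0.531% and 0.318% in hippocampus, against 0.327% and 0.415% in cortex. Gimap4 and Fam177a changed by 0.86 (SE 0.38) and 0.87 (SE 0.42), both with adjusted p = 0.490. For the 18 called genes the approximate 95% interval of the DC-minus-vehicle difference held 0 in each case and had bounds between log2 -0.94 and 1.03, so the data do not bound a change by treatment more closely; for Mtch2 it ran from -0.64 to 0.80 and for Gm52523 from -0.25 to 0.55.

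**Figure D5:**
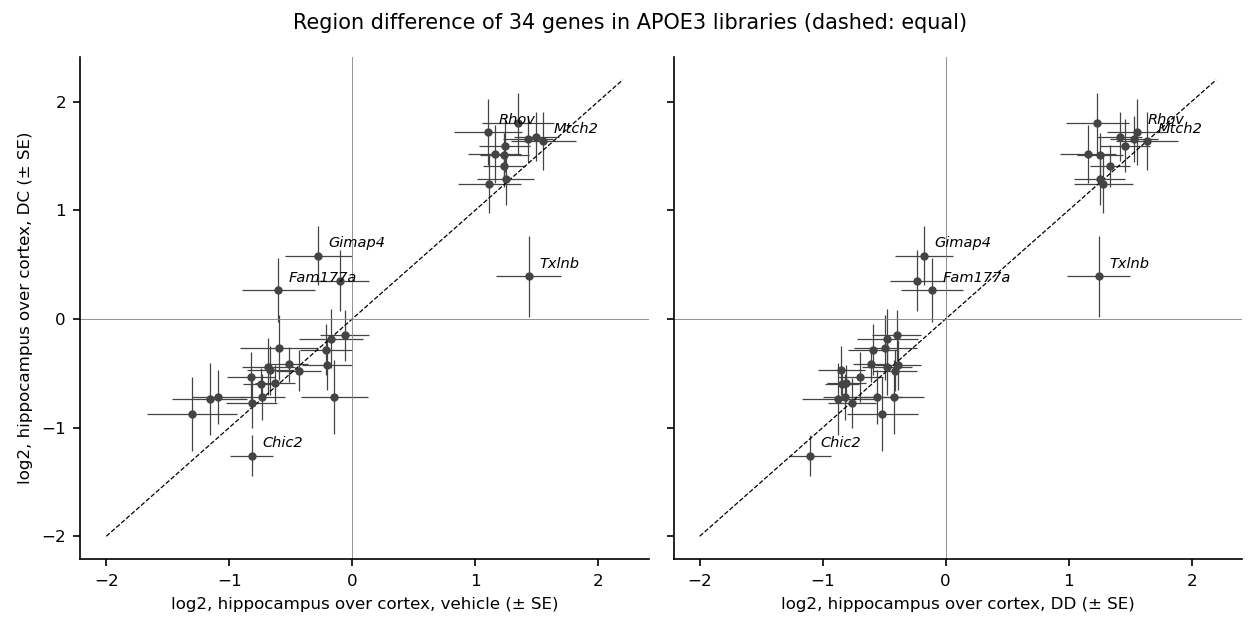
Region difference (log2, hippocampus over cortex, with SE) of 34 genes after DC on the y axis, against vehicle (left) and DD (right) on the x axis; the dashed line marks equal differences. Signs were the same for 31 of 34 genes in each panel, and Txlnb lies farthest below the line, at 0.39 after DC and 1.44 in vehicle.

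List medians for cell types and pathways lay close to background, and of 20 lists only Mtch2, on the list of mitochondrial membrane proteins and carriers, passed the filter. Without the filter 5 of 19962 genes were called (0.025%): Mtch2 higher (0.00501%), and Gm10265, Gm52523, Chic2 and Lrr1 lower (0.02%). On that scale the median log2 difference was -0.097 over all genes, -0.33 over 10 excitatory neuron genes, -0.53 over 12 synaptic genes and -0.25 over both 13 glycolytic and 15 oxidative phosphorylation genes, with 0 members called in these 4 lists. Slc17a7, which loads glutamate into vesicles of excitatory neurons, had 1 to 3 counts in hippocampus (median 1.5) and 2 to 13 in cortex (median 4.5), which is 1.03 and 2.97 times the negative probe. The glycolytic Aldoa had 1 to 2 counts (median 2) against 2 to 14 (median 6.5), and Pkm 1 to 5 (median 2.5) against 2 to 20 (median 6). Olig2, of the oligodendrocyte lineage, lay higher, at 3.09 and 5.57 times the negative probe, with 1 to 9 counts (median 4) against 4 to 28 (median 8). It passed the filter of the 49-library fit, where its difference after DC had the opposite sign (log2 0.35, adjusted p = 0.261), against -0.91 without the filter. None of these 4 passed without the filter (adjusted p = 0.989 each), and their part in the result was not tested. Slc17a7, Aldoa and Pkm do not stand for their lists. Without the filter, the glycolytic Pfkp, Tpi1 and Eno1 were at log2 0.35, 0.15 and 0.029. Equal counts do not lie at 0 on that scale: Mobp, with a mean count of 1.375 in both regions, was at 0.25. The mean count of Pfkp was 1.875 in hippocampus and 1.75 in cortex. Tpi1 and Eno1 had lower means in hippocampus (1.625 and 1.375) than in cortex (1.75 and 1.625). Of the excitatory neuron list, Slc17a6, Neurod2, Sv2b and Nptx1 were at 0.47, 0.25, 0.062 and 0.047. Their mean counts were 1.625, 1.75, 1.625 and 1.5 in hippocampus and 1.375, 1.75, 1.875 and 1.75 in cortex. All of these means lie near the floor, so the signs are descriptions. The median sums of microglial, endothelial, choroid plexus, meningeal and blood markers were 1.02, 1.09, 1.21, 1.09 and 1.42 times the negative probe per gene in hippocampus and 0.989, 1.07, 1.19, 1.20 and 1.04 times in cortex; the 12 genes of the p53 and DNA damage list, with Cdkn1a at 0.946 and 0.980 times, were at 1.06 times in both. Astrocytic Gfap, myelin Mbp and Apoe lay at 0.803, 0.803 and 0.861 times the negative probe in hippocampus and at 0.924, 0.942 and 0.739 times in cortex.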

How the data were processed

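The deposited table holds expected counts per probe target, which the authors did not scale to depth (per the labels, tags were sequenced on an Illumina NovaSeq instrument; the submitters' processing notes name mm10; the counting software is not given in the sources used here). Values were whole in all but 4 features and were rounded. The comparison used edgeR 4.0.16 in R 4.3.3: filterByExpr (minimum count 10), TMM, glmQLFit and glmQLFTest (quasi-likelihood), with Benjamini-Hochberg adjustment over the genes tested, on the 16 libraries; differences of differences used all 49 APOE3 libraries in 6 groups. Log2 CPM had a prior count of 2, and standard errors (SE) were derived from the F statistic. Library totals were tested by exact permutation, two-sided, with p adjusted over 4 quantities that include the Mtch2 to Chic2 ratio, whose own p is not given because both genes were chosen for their difference. Including that ratio makes the adjusted p of the tested-gene count too small. Lists were described by counts and medians. Replicates are captured regions; none of the 97 libraries were identical (0 duplicates). Libraries next to each other in plate order that share a group are called a run of wells. Alternatives were other scalings, DESeq2 1.42.0, no filter, floor values set to 0, summed runs, plate row or run as a block (limma 3.58.1) and leaving out libraries; 4 were added after seeing the data (plate row H left out, no TMM factor, the negative probe subtracted, and row block with negative-probe scaling). The members, lists and the rule for named genes (all called genes, the other tested genes, and the smallest p in each difference of differences) were chosen with earlier results of these data known. Positions and promoter windows are from RefSeq GRCm38.p6, which lists 22 of the 23 tested symbols. The code was tested on simulated data.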

Additional observations from a re-analysis of the deposited data

Results flagged for a closer look

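In 54 groups of 8 values, 4 held a library whose gap to the nearest other was beyond the 95% limit of Dixon's test, which chance gives in about 1 of 20 groups. Hippocampus 8, in plate row H, accounted for 3 of them: its Xrn1 value was log2 CPM 15.9 (53 counts) against 14.1 to 14.7 in the other hippocampus libraries, its negative probe 1.86 against 1.02 to 1.35, and its counts over the floor 26323 against 1606 to 11984. Hippocampus 7, in the same row, had the lowest Gm33888, log2 CPM 15.4 (16 counts) against 16.5 to 17.0. Without hippocampus 8 and without hippocampus 7, 18 genes were called each time, and without all 4 libraries of row H, 18 genes (10 higher and 8 lower), 17 of them among the 18 called with row H.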

How the results depend on the processing

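No paired analysis was possible because the labels give no replicate numbers; plate row as a block kept all 18 calls. The number of genes called in DC libraries was 15 to 18 when 1 library was left out, and Cd99, Tysnd1 and Lrr1 were the called genes that lost their call in any of these fits. DESeq2 kept 18 of 18 calls, upper-quartile scaling, floor values set to 0, the negative probe subtracted, summed runs of wells and the run as a random block kept 16 each, the 49-library fit and totals without TMM 17 each, the floor scaling 11 and the negative-probe scaling 9 (12 with the row block). The splits of higher and lower calls were 9 and 7 with the upper quartile, 8 and 13 with totals without TMM, and 3 and 14 with the negative probe and the row block. In vehicle and DD libraries, the floor scaling gave 0 higher and 22 lower, and 4 higher and 22 lower, against 12 and 13 in each with TMM. Without the filter, which tests 19962 genes, 5 genes were called in DC, 5 in vehicle and 15 in DD, and Vmn1r189 was at log2 -0.0095. The not-called Gimap4 was at log2 -0.61 with negative-probe scaling (-0.54 with the row block, adjusted p = 0.0456), -0.71 without the filter and -0.049 with totals without TMM. Left-out libraries gave 23 to 26 calls in vehicle, 22 to 26 in DD and 0 to 0 in both differences of differences. They gave log2 -0.96 to -0.59 for the tested-gene count (-0.79 over runs of wells, exact permutation p = 0.171), which lost p under 0.05 in 11 of 16 fits, -0.36 to -0.15 for the negative probe, -1.02 to -0.37 for counts over the floor and 2.83 to 3.20 for the Mtch2 to Chic2 ratio. At this depth, 23 of 19962 genes could be tested.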

Other observations

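Of the marker lists, read without the filter, inhibitory neuron genes had the highest median log2 difference between hippocampus and cortex, 0.20 over 10 genes, followed by mural cell genes with 0.18 over 8, with 0 members called in each. On that scale Gad1, with a mean count of 1.625 in both regions, was at 0.25, so these medians do not mean more counts in hippocampus. Both lists lay at background: medians were 0.946 and 0.903 times the negative probe in hippocampus and 0.933 and 0.838 times in cortex. S100a9, a calcium-binding protein of neutrophils, had 1 to 5 counts in hippocampus (median 2.5, above 1 in 6 of 8 libraries) and 1 to 2 in cortex (median 1, above 1 in 2 of 8), and did not pass (log2 1.38, edgeR adjusted p = 0.989). The other neutrophil genes on the list did not follow it: S100a8 was at log2 0.097 (1.28 and 1.48 times the negative probe) and Ly6g had mean counts of 1.75 in both regions, and hemoglobin Hba-a1 was at -0.24. S100a9 and Nrgn were chosen after their values were seen. Nrgn, the postsynaptic calmodulin-binding protein neurogranin, lay the opposite way, with 1 to 3 counts in hippocampus (above 1 in 1 of 8 libraries) and 1 to 9 in cortex (above 1 in 7 of 8). S100a9 lay at 1.72 and 0.739 times the negative probe in hippocampus and cortex, and Nrgn at 0.80 and 1.97 times.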
